A study of Mus musculus with 6 samples.

Results

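The fatty acid genes described here are 39 genes of fatty acid synthesis, desaturation, elongation, activation, oxidation and binding, found on the arrays by their listed gene symbols. They were read by 60 of the 39429 non-control probes, and 37 of them were among the 19058 genes tested. Elovl2 and Fabp1 had no probe well above background on all arrays of a group. The tissue was sciatic nerve at an age of 1 month. Littermate controls (Ctrl) gave 3 pools and OGT_SCKO mice, knockouts of OGT per the labels, gave 3. Both genotypes were on the background that the labels spell C56 BL6, no treatment is named, and 1 array in 1 colour was used for each pool. OGT attaches the single sugar O-GlcNAc to nuclear and cytoplasmic proteins, and the title of the series places the question in Schwann cells and the AP-1 transcription factor JUN. How the deletion was made, the driver of any Cre and the number of animals in a pool are not given in the sources used here. The p-values measure the spread between pools. The nerve was studied as bulk tissue, so fewer cells of a type and less RNA per cell cannot be told apart.

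Fatty acids are built in the cytosol from acetyl-CoA, which Acly and Acss2 supply, Acaca and Acacb carboxylate and Fasn joins into palmitate. Elongases (Elovl) lengthen the chain, desaturases (Scd, Fads) put in double bonds, and acyl-CoA synthetases (Acsl) activate fatty acids for membrane lipids or for breakdown. Breakdown takes place in mitochondria, where the carnitine palmitoyltransferases (Cpt) bring acyl chains in and the acyl-CoA dehydrogenases (Acad) and the trifunctional protein (Hadha, Hadhb) shorten them. Schwann cells draw heavily on synthesis and elongation because myelin is rich in lipids with very long acyl chains.

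Values are log2 processed signals from which the array's own 75th percentile was subtracted, so 0 is that percentile, and fold changes are OGT_SCKO over Ctrl. Levels are not compared between genes, since each probe has its own brightness. A gene was called higher or lower at a limma adjusted p under 0.05 over all genes tested. Of the 37 members tested, 7 rose, 5 fell and 25 did not pass. That is 32.4% called, beside 23.3% of all genes tested (11.2% higher and 12.1% lower). The pools of both genotypes did not overlap in 21 of the 37 members (56.8%), beside 45.7% of all genes with a value in every pool. An exact two-sided permutation test of a single gene over 3 and 3 pools cannot give a p below 0.1.

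**Figure D1:**
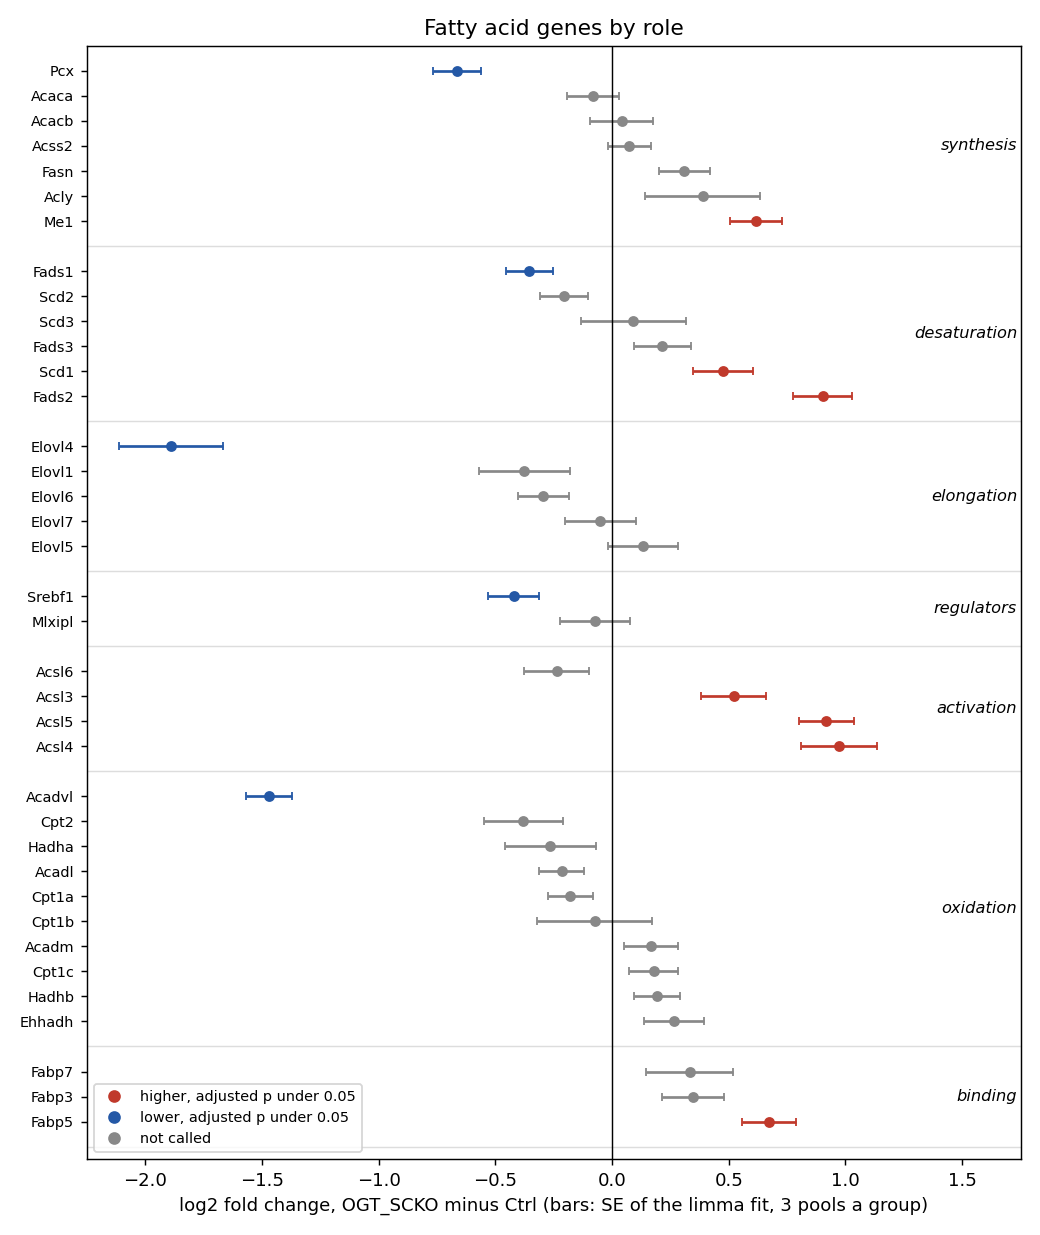
Log2 fold change of the 37 members tested (horizontal axis, OGT_SCKO minus Ctrl, bars are the SE of the limma fit over 3 pools a group), grouped by role. Elovl4 at -1.89 and Acadvl at -1.47 stand furthest to the left, and Acsl4 at 0.97, Acsl5 at 0.92 and Fads2 at 0.90 furthest to the right.

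Ogt, which checks the labels, stood at 0.46, 0.35 and 0.11 in Ctrl 1 to 3 and at -0.89, -1.01 and -1.01 in OGT_SCKO 1 to 3 (2.42-fold lower, limma adjusted p = 0.00117). The arrays had 75th percentile signals of 2749 to 6136, and 58.9% to 65.2% of their probes were well above background. Slide is not in the labels and was read from the number in the names of the scans. By that number Ctrl 2 and the 3 OGT_SCKO arrays were on 1 slide and the other Ctrl arrays on the second. A fit with slide as a block therefore compares the genotypes through Ctrl 2. All 10 Schwann cell markers looked for were measured, and 2 of them (20%) fell, S100b and Prx. All 10 had a negative log2 fold change, with a median of -0.44, or -0.053 after quantile normalisation. Their summed linear level was 596 to 783 in Ctrl and 382 to 611 in OGT_SCKO, which overlapped. Markers of some other cell types were lower in OGT_SCKO too, but not those of macrophages. Of 7 macrophage markers none passed and 4 had a positive log2 fold change, with a median of 0.012. Of 7 adipocyte markers measured out of 10, 4 fell and none rose, and their summed linear level was 2.78, 14.9 and 12.8 in Ctrl 1 to 3 against 0.977, 0.418 and 2.11 in OGT_SCKO 1 to 3. Lep, Cidea and Ucp1 were not well above background. With normexp correction or slide as a block no adipocyte marker passed, with medians of -2.22 and -3.20 beside -2.61 on log2. Of 7 skeletal muscle markers measured out of 12, 5 fell, with a summed level of 5.22 to 6.41 in Ctrl and 2.05 to 3.76 in OGT_SCKO. Mylpf went the other way and did not pass (log2 0.56, SE 0.57). With normexp correction or slide as a block 2 of the 7 passed. Ckm, Myh1, Myh2, Mb and Ttn were not well above background. Of 4 hepatocyte markers measured out of 7, 1 fell, and the summed level was 1.09 to 3.62 in Ctrl and 0.447 to 0.983 in OGT_SCKO, with Alb, Apoa1 and Fgb not well above background. None of the 5 endothelial markers passed, but their summed level was 13.4 to 16.1 in Ctrl and 8.69 to 11.2 in OGT_SCKO. Of 6 fibroblast markers 1 fell and 5 had a negative log2 fold change. The fibroblast median was -0.51, or -0.12 after quantile normalisation. Fat and muscle express many of the fatty acid genes too. The part of all these cells in the results was not tested.

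Shown next are 4 probes that rose, 2 of genes called higher and 2 from genes whose probes gave different calls. The first is a Fads2 probe, at chr19:10163229-10163288 (mm9, minus strand). The second is the Acsl5 probe, whose alignment at chr19:55368743-55369331 (mm9, plus strand) spans more than its own length. The remaining pair are the probes of Acly (chr11:100365518-100365577, mm9, minus strand) and Scd3 (chr19:44289995-44290054, mm9, plus strand) that changed where another probe of the same gene did not pass. They are the probe letters in the files, 5′ to 3′, and they were not placed in exons or introns here.
Fads2: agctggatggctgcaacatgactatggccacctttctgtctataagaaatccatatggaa
Acsl5: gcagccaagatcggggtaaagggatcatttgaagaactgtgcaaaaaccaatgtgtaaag
Acly: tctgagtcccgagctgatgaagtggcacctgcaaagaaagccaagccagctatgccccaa
Scd3: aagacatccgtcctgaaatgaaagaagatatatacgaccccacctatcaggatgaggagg

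In the synthesis steps proper, Me1 rose, Pcx fell and the remaining 5 of 7 genes did not pass. Me1, the cytosolic malic enzyme that makes NADPH for fatty acid synthesis, stood at 3.13, 3.10 and 2.99 in Ctrl 1 to 3 and at 3.82, 3.60 and 3.64 in OGT_SCKO 1 to 3. Every OGT_SCKO pool was above every Ctrl pool, a 1.53-fold rise (log2 0.62, SE 0.11, limma adjusted p = 0.0105). The other probes of Me1 rose 1.75-fold (limma adjusted p = 0.00585) and 1.50-fold (limma adjusted p = 0.0119). Pcx, pyruvate carboxylase, which refills the oxaloacetate that leaves mitochondria as citrate, stood at 1.52, 1.60 and 1.67 in Ctrl and at 0.96, 0.99 and 0.84 in OGT_SCKO. All OGT_SCKO pools lay below all Ctrl pools, a 1.58-fold fall (log2 -0.66, SE 0.10, limma adjusted p = 0.00649). Within each array, Me1 minus Pcx was 1.61, 1.49 and 1.32 in Ctrl and 2.86, 2.60 and 2.80 in OGT_SCKO. This difference widened by 1.28, which subtracting a constant from each array cannot change, and by 1.32 after quantile normalisation. With slide as a block, neither Me1 (limma adjusted p = 0.109) nor Pcx (limma adjusted p = 0.0743) passed, with estimates of 0.59 and -0.67. Without Ctrl 3, Me1 also missed the threshold while Pcx passed.

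Fasn, the fatty acid synthase, stood at -0.92, -0.78 and -0.66 in Ctrl and at -0.51, -0.47 and -0.46 in OGT_SCKO. The pools did not overlap, but the difference of 1.24-fold missed the threshold (limma adjusted p = 0.0869). Acaca, the carboxylase of the committed step, differed by -0.08 (SE 0.11) and its mitochondrial counterpart Acacb by 0.04 (SE 0.13). Acss2, which makes acetyl-CoA from acetate, differed by 0.07 (SE 0.093). The pools of Acaca and Acacb overlapped between genotypes.

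Acly, which cleaves citrate to acetyl-CoA, gave different values by probe. Its brighter probe, at chr11:100337674-100337733 (mm9, minus strand), read 4.30, 4.73 and 4.60 in Ctrl and 5.37, 4.45 and 4.97 in OGT_SCKO. These pools overlapped and the probe did not pass (log2 0.39, SE 0.25, limma adjusted p = 0.281). The dimmer Acly probe printed above read -2.10, -1.96 and -1.64 in Ctrl and -1.31, -0.70 and -0.62 in OGT_SCKO, a 2.03-fold rise (SE 0.22 on log2, limma adjusted p = 0.018). Within arrays the gap between the probes overlapped between the genotypes, at -6.70 to -6.24 in Ctrl and -6.68 to -5.15 in OGT_SCKO. With quantile normalised or deposited log2 values, or the mean of its probes, Acly passed the threshold.

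Among the 6 desaturases, Scd1 and Fads2 rose, Fads1 fell and Scd2, Scd3 and Fads3 did not pass. Fads2 and Fads1 act in turn on the path to highly unsaturated fatty acids. Fads2, the first enzyme of that path, stood at 1.49, 1.33 and 1.51 in Ctrl and at 2.20, 2.52 and 2.32 in OGT_SCKO. It rose 1.87-fold (log2 0.90, SE 0.12, limma adjusted p = 0.00428). The Fads2 probe printed above, which lies at the other end of a stretch of 25529 bases holding both probes, rose 2.19-fold (limma adjusted p = 0.00535). Fads1, which acts after Fads2, stood at 3.86, 3.84 and 3.85 in Ctrl and at 3.59, 3.42 and 3.48 in OGT_SCKO. The 3 Ctrl pools lay close together and above all OGT_SCKO pools, and Fads1 fell 1.28-fold (SE 0.10 on log2, limma adjusted p = 0.0462).

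Fads1, Fads2 and Fads3 are neighbours on chromosome 19 in RefSeq, and they did not move as one. Fads2 minus Fads1 within each array was -2.37, -2.51 and -2.34 in Ctrl and -1.40, -0.90 and -1.16 in OGT_SCKO, a shift of 1.26. The genotypes did not overlap in this difference. Fads3, a relative that acts on the sphingoid base of ceramides, read 1.83, 1.96 and 1.90 in Ctrl and 2.27, 1.93 and 2.13 in OGT_SCKO by its brighter probe and did not pass (limma adjusted p = 0.237). Its other probe rose 1.44-fold (limma adjusted p = 0.0323), from 1.49, 1.39 and 1.58 in Ctrl to 1.81, 2.19 and 2.03, and Fads3 passed with the mean of its probes. With slide as a block, Fads2 passed (limma adjusted p = 0.0366) and Fads1 did not (limma adjusted p = 0.228). Fads1 also missed the threshold after quantile normalisation, median scaling and normexp correction, with the deposited log2 values, without the filter on dim probes, and when Ctrl 1, Ctrl 2, Ctrl 3, OGT_SCKO 2 or OGT_SCKO 3 was left out.

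The stearoyl-CoA desaturases make oleate and palmitoleate. Scd1 read 4.64, 4.64 and 4.55 in Ctrl and 5.30, 4.91 and 5.04 in OGT_SCKO, a 1.39-fold rise (SE 0.13 on log2, limma adjusted p = 0.0407). Scd2 read 5.90, 5.93 and 5.82 in Ctrl and 5.79, 5.61 and 5.64 in OGT_SCKO. Its pools did not overlap, yet it did not pass (log2 -0.21, SE 0.10, limma adjusted p = 0.187), and its sign turned under quantile normalisation (0.13). Scd1 minus Scd2 was -1.25, -1.29 and -1.28 in Ctrl and -0.49, -0.69 and -0.60 in OGT_SCKO, a shift of 0.68, or 0.58 after quantile normalisation. With slide as a block Scd1 missed the threshold (limma adjusted p = 0.219), as it did without any one of Ctrl 1, Ctrl 2, Ctrl 3, OGT_SCKO 1 and OGT_SCKO 3.

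Scd3, a further paralog in the same cluster, depended on the probe. Its brightest probe read -2.05, -1.66 and -2.24 in Ctrl and -1.50, -2.14 and -2.04 in OGT_SCKO (log2 0.09, SE 0.22), and a further probe gave 0.01 (SE 0.32). Neither passed, and the pools overlapped. The Scd3 probe printed above read -3.31, -3.38 and -3.12 in Ctrl and -2.27, -1.71 and -1.84 in OGT_SCKO, a 2.52-fold rise (SE 0.17 on log2, limma adjusted p = 0.00294). The files list accessions of Scd1 beside those of Scd3 for this probe, so its signal cannot be given to Scd3 alone. Within arrays it moved against the brightest Scd3 probe by 1.24, with no overlap between genotypes.

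**Figure D2:**
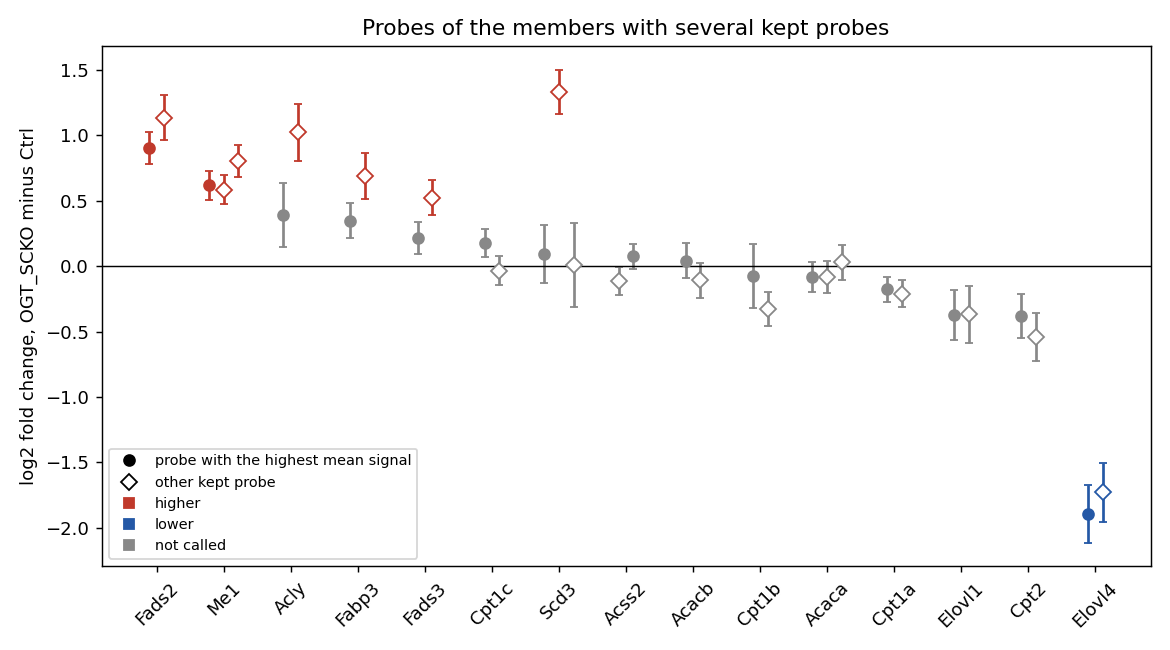
Log2 fold change (OGT_SCKO minus Ctrl, bars are the SE of the limma fit) of every kept probe of the 15 members with several, the probe with the highest mean signal as a filled circle and the others as open diamonds. Both probes of Elovl4 and of Fads2 and all 3 of Me1 were called in the same direction, while in Acly, Fads3, Fabp3 and Scd3 a dimmer probe was called and the brightest was not.

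Of the 5 elongases tested, Elovl4 fell and the others did not pass. Elovl4, which makes very long chain saturated and polyunsaturated fatty acids, read 0.26, -0.23 and 0.26 in Ctrl and -2.20, -1.63 and -1.56 in OGT_SCKO. This 3.71-fold fall (log2 -1.89, SE 0.22, limma adjusted p = 0.00231) was the largest among the members. A second Elovl4 probe within the same 668 bases read -0.94, -1.43 and -0.76 in Ctrl and -3.09, -2.48 and -2.74 in OGT_SCKO, 3.31-fold lower (limma adjusted p = 0.00308). The call held with slide as a block (log2 -1.56, limma adjusted p = 0.0359).

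Elovl1, which lengthens saturated chains for sphingolipids, read 5.65, 6.06 and 5.90 in Ctrl and 5.74, 5.13 and 5.62 in OGT_SCKO. Its pools overlapped (log2 -0.38, SE 0.19, limma adjusted p = 0.196). Elovl4 minus Elovl1 moved by -1.52 between genotypes, with no overlap, and by -1.82 after quantile normalisation. Elovl6, which takes palmitate to stearate, read 4.47, 4.29 and 4.32 in Ctrl and 3.97, 4.07 and 4.15 in OGT_SCKO and missed the threshold (log2 -0.29, SE 0.11, limma adjusted p = 0.096) although its pools did not overlap. Elovl5 and Elovl7 differed by 0.13 (SE 0.15) and -0.05 (SE 0.15), and the pools of both overlapped.

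Elovl2, which elongates polyunsaturated chains beyond those Elovl5 handles, was well above background on none of the Ctrl arrays and on 2 of the 3 OGT_SCKO arrays. Its probe read -7.24, -6.59 and -7.30 in Ctrl and -4.68, -4.21 and -4.60 in OGT_SCKO. Its OGT_SCKO mean was 1.47-fold above the lowest signals of any probe measured above background on the Ctrl arrays. That mean includes the array where Elovl2 was not well above background, so 1.47 is not a strict lower bound. Elovl2 did not enter the test.

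Both transcription factors that drive lipogenic genes were measured. Srebf1 read -0.50, -0.45 and -0.42 in Ctrl and -0.75, -0.89 and -1.01 in OGT_SCKO, a 1.34-fold fall (SE 0.11 on log2, limma adjusted p = 0.036). All OGT_SCKO pools lay below all Ctrl pools. The call ended with slide as a block (limma adjusted p = 0.191), under median scaling, normexp correction and without the filter on dim probes, and when any one of Ctrl 1, Ctrl 2, Ctrl 3, OGT_SCKO 2 and OGT_SCKO 3 was left out. Mlxipl, the carbohydrate response factor ChREBP, had a dim probe that was well above background on 2 Ctrl arrays and 1 OGT_SCKO array. This dim probe read -4.47, -4.94 and -4.87 in Ctrl and -5.27, -5.34 and -5.86 in OGT_SCKO and was not tested. By the kept probe Mlxipl differed by -0.07 (SE 0.15), with overlapping pools. Its kept probe at chr5:135614195-135614252 (mm9, plus strand) holds the stretch CACACCTTTAATCCCAG, and a single 15-base piece of the probe occurs in promoter windows of 20 other genes, so its signal may not be that of Mlxipl alone.

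Of the 4 acyl-CoA synthetases among the members 3 rose, where 11.2% of all genes tested were called higher. Acsl1, of the same family but read with a related list below, did not pass. The members were chosen with earlier results known. Acsl4, which prefers arachidonate, read -0.72, -1.02 and -0.75 in Ctrl and 0.07, 0.43 and -0.07 in OGT_SCKO, 1.96-fold higher (log2 0.97, SE 0.16, limma adjusted p = 0.00841). Acsl5 read -0.60, -0.69 and -0.46 in Ctrl and 0.19, 0.44 and 0.38 in OGT_SCKO, 1.89-fold higher (log2 0.92, SE 0.12, limma adjusted p = 0.0034). In both genes all OGT_SCKO pools lay above all Ctrl pools, and both passed with slide as a block (limma adjusted p = 0.0435 for Acsl4 and 0.033 for Acsl5).

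Acsl3, a synthetase found on lipid droplets and the endoplasmic reticulum, read -0.93, -1.20 and -1.02 in Ctrl and -0.69, -0.32 and -0.58 in OGT_SCKO. It rose 1.43-fold (SE 0.14 on log2, limma adjusted p = 0.0385), but not with slide as a block (limma adjusted p = 0.11), nor under median scaling or without the filter, nor when Ctrl 1, Ctrl 2, Ctrl 3, OGT_SCKO 2 or OGT_SCKO 3 was left out. Acsl6, known from brain, was dim and differed by -0.24 (SE 0.14) with overlapping pools.

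**Figure D3:**
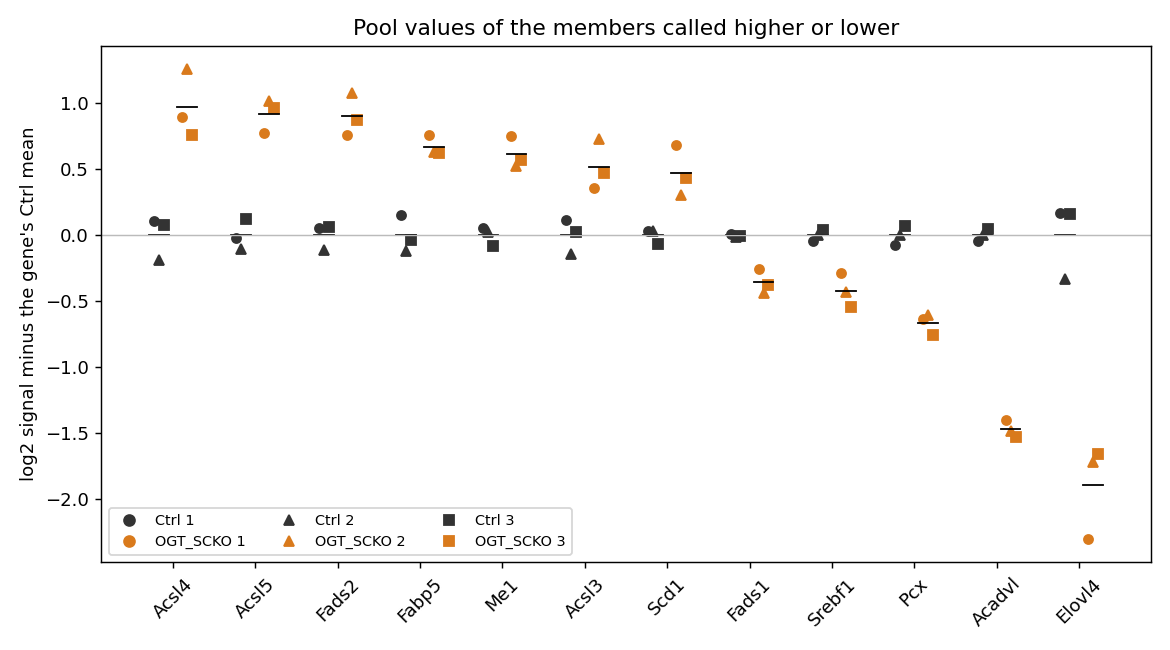
Values of the 12 called members in each pool (vertical axis, log2 signal minus the mean of the gene's 3 Ctrl pools), with Ctrl in dark grey, OGT_SCKO in orange, a symbol for each pool number and a bar for each mean. Acadvl lay at 1.31 to 1.44 in OGT_SCKO and 2.79 to 2.88 in Ctrl before centring, and the pools of no called member overlapped between genotypes.

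Of the 10 genes of oxidation, Acadvl fell, none rose and 9 did not pass. Acadvl, the very long chain acyl-CoA dehydrogenase that takes the first step of mitochondrial oxidation, read 2.79, 2.84 and 2.88 in Ctrl and 1.44, 1.35 and 1.31 in OGT_SCKO. Its probe lies at chr11:69823722-69823781 (mm9, minus strand). OGT_SCKO held 36.1% of the Ctrl signal, a 2.77-fold fall (log2 -1.47, SE 0.098, limma adjusted p = 0.000304), the member with the smallest p. It was the sole member to pass in the main fit and all 18 alternatives, where its fold ran from 2.48 to 2.84 and its limma adjusted p reached at most 0.0431.

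The dehydrogenases for shorter chains read otherwise. Acadm, for medium chains, stood at 2.50, 2.31 and 2.43 in Ctrl and at 2.45, 2.69 and 2.60 in OGT_SCKO (log2 0.17, SE 0.11, limma adjusted p = 0.311). Acadl, for long chains, stood at 0.99, 1.09 and 1.1 in Ctrl and at 0.84, 0.82 and 0.87 in OGT_SCKO (log2 -0.22, SE 0.096, limma adjusted p = 0.147). Acadm pools overlapped and Acadl pools did not. Acadvl minus Acadm was 0.30, 0.53 and 0.45 in Ctrl and -1.01, -1.34 and -1.29 in OGT_SCKO. Acadvl minus Acadl was 1.80, 1.75 and 1.78 in Ctrl and 0.60, 0.54 and 0.44 in OGT_SCKO. Acadvl therefore fell against both by 1.25 or more within the same arrays in the main fit. Acadvl minus Acadl moved by -1.22 after quantile normalisation and by -1.13 with the deposited log2 values.

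The carnitine step held no call. Cpt1a, the liver-type form, differed by -0.18 (SE 0.097), Cpt1b, the muscle form, by -0.07 (SE 0.25), Cpt1c, known from brain, by 0.18 (SE 0.10) and Cpt2, on the inner membrane, by -0.38 (SE 0.17). By these probes the pools of Cpt1a and of Cpt1c did not overlap, and those of Cpt1b and Cpt2 did. The second probes of the same genes did not pass either. They gave -0.33 (SE 0.13) for Cpt1b, -0.54 (SE 0.18, limma adjusted p = 0.0741) for Cpt2 and -0.21 (SE 0.10) for Cpt1a, all without overlap. For Cpt1c the second probe gave -0.04 (SE 0.11), the opposite sign, with overlapping pools.

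Hadha and Hadhb encode the 2 subunits of the trifunctional protein, and their promoter windows in RefSeq (GRCm38.p6) lie head to head and share 228 bases. Hadha read 2.53, 2.78 and 2.65 in Ctrl and 2.75, 2.02 and 2.40 in OGT_SCKO (log2 -0.26, SE 0.20). Hadhb read 3.45, 3.35 and 3.38 in Ctrl and 3.61, 3.63 and 3.52 in OGT_SCKO (log2 0.19, SE 0.098). Neither passed, and Hadha minus Hadhb overlapped between genotypes. Ehhadh, the peroxisomal bifunctional enzyme, differed by 0.26 (SE 0.13) with overlapping pools.

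Fabp5, a fatty acid binding protein that carries fatty acids inside the cell, read 3.86, 3.58 and 3.67 in Ctrl and 4.46, 4.33 and 4.33 in OGT_SCKO. It rose 1.59-fold (log2 0.67, SE 0.12, limma adjusted p = 0.00919), with no overlap, and missed the threshold with slide as a block (limma adjusted p = 0.0535). The probes of Fabp5 and Hadhb each share at least 20 bases, on either strand, with 1 array probe of another name. Whether those array probes read other genes was not tested. Fabp7, the brain and glial form, differed by 0.33 (SE 0.19) and did not pass. Fabp3, the heart form, read -2.38, -2.31 and -2.30 in Ctrl and -1.74, -2.10 and -2.11 in OGT_SCKO by its brighter probe (log2 0.35, SE 0.13, limma adjusted p = 0.103). Its second probe, in the same 69 bases, rose 1.61-fold (limma adjusted p = 0.0336), and Fabp3 passed with the mean of both. Fabp1, the liver form, was above background on none of the arrays.

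The synthesis set was then read beside the oxidation genes. Of the 20 genes tested of synthesis, desaturation, elongation and its regulators, 3 rose and 4 fell (35% called), and their median log2 fold change was -0.0049. Of the 10 oxidation genes none rose and 1 fell (10% called), with a median of -0.126. Over all genes 23.3% were called, with 12.1% of all genes lower, so the oxidation count is near the background. The median of all genes tested was -0.075, between both. By pool, the median deviation of the synthesis genes from their own means was -0.023, 0.092 and -0.0099 in Ctrl and 0.069, -0.131 and -0.044 in OGT_SCKO, which overlapped. That of the oxidation genes was 0.021, -0.014 and 0.032 in Ctrl and -0.026, -0.041 and -0.017 in OGT_SCKO, which lay just below all Ctrl values. Under quantile normalisation the synthesis median was 0.0856 and the oxidation median -0.0691, with a median of all genes of -0.011. The sign of the synthesis median thus depended on scaling, as the median of all genes moved too. Under both scalings the synthesis median lay above that of all genes and the oxidation median below it.

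The rest of the pathway was read from lists of related genes. Of 16 further genes of synthesis and elongation tested, 1 rose and 1 fell. Acsbg1, an acyl-CoA synthetase of the bubblegum family, read -0.25, -0.17 and 0.06 in Ctrl and 2.18, 1.83 and 2.08 in OGT_SCKO, a 4.43-fold rise (SE 0.14 on log2, limma adjusted p = 0.000288). It also rose with slide as a block (log2 2.20, limma adjusted p = 0.0071). A dimmer Acsbg1 probe went the other way, with a log2 fold change of -1.001 (SE 0.37) that did not pass (limma adjusted p = 0.0948). With the mean of both probes Acsbg1 did not pass (log2 0.57, limma adjusted p = 0.128). Acsf3, the malonyl-CoA synthetase of mitochondria, fell 1.54-fold (limma adjusted p = 0.00885), though not with slide as a block (limma adjusted p = 0.117). Acsl1, the remaining long chain synthetase of its family, differed by 0.12 (SE 0.11).

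Of 10 genes of SREBP processing and LXR, Mbtps2, a protease that releases SREBPs, rose 1.35-fold (limma adjusted p = 0.0197) and Mlxip, the ChREBP relative MondoA, fell 1.72-fold (limma adjusted p = 0.0069). With slide as a block Mlxip passed (limma adjusted p = 0.0412) and Mbtps2 did not (limma adjusted p = 0.146). Insig1, which holds SREBPs back, differed by -0.41 (SE 0.33), and its sign turned with slide as a block (0.13). Of 10 PPAR regulators and targets tested, 1 rose and 1, not reported here, fell. The log2 fold change was negative in 8 of the 10, with a median of -0.41. The gene that rose was Ppargc1a, a coactivator of mitochondrial genes (1.80-fold, limma adjusted p = 0.0029). It narrowly missed with slide as a block (limma adjusted p = 0.0521). Ppara itself differed by -0.53 (SE 0.25) with overlapping pools, and passed with the mean of its probes (log2 -0.68, limma adjusted p = 0.00456).

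Of 13 further mitochondrial genes, Acads rose and Acaa2 and Etfb fell. Acads, the dehydrogenase for short chains, rose 1.37-fold (limma adjusted p = 0.0314). Acaa2, the thiolase, fell 1.40-fold (limma adjusted p = 0.0151) and Etfb, which takes electrons from the dehydrogenases, 1.51-fold (limma adjusted p = 0.0331). None of the 3 passed with slide as a block. Slc25a20, the carnitine carrier, differed by -0.48 (SE 0.15) and did not pass. Of 12 peroxisomal genes 1 fell, Hsd17b4, the D-bifunctional protein (1.35-fold, limma adjusted p = 0.029, and 0.104 with slide as a block).

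Among the 6 related lists uptake had the lowest median, -0.49 over 10 genes tested, with 1 rise and 3 falls. Slc27a1, a fatty acid transport protein, read 3.63, 3.95 and 3.72 in Ctrl and 3.00, 2.50 and 2.84 in OGT_SCKO, a 1.98-fold fall (limma adjusted p = 0.00807). Lpl, lipoprotein lipase, fell 2.35-fold (limma adjusted p = 0.0107), and both held with slide as a block (limma adjusted p = 0.0436 and 0.0283). Fabp4, which is also on the adipocyte list, fell 5.71-fold (limma adjusted p = 0.0246), from -0.995, 0.949 and 0.847 in Ctrl to -2.45, -2.77 and -1.52. Its call ended with slide as a block (limma adjusted p = 0.0712), with normexp correction, with no filter on dim probes, and without Ctrl 2 or Ctrl 3, and without Ctrl 1 its log2 fold change was -3.14. Lpl missed the threshold without OGT_SCKO 3 (limma adjusted p = 0.0512). It is abundant in fat, and in Ctrl 1 it read 1.02, below 1.88 and 1.62 in the other Ctrl pools. Slc27a3 rose 1.65-fold (limma adjusted p = 0.0275), but not with slide as a block (limma adjusted p = 0.0982).

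**Figure D4:**
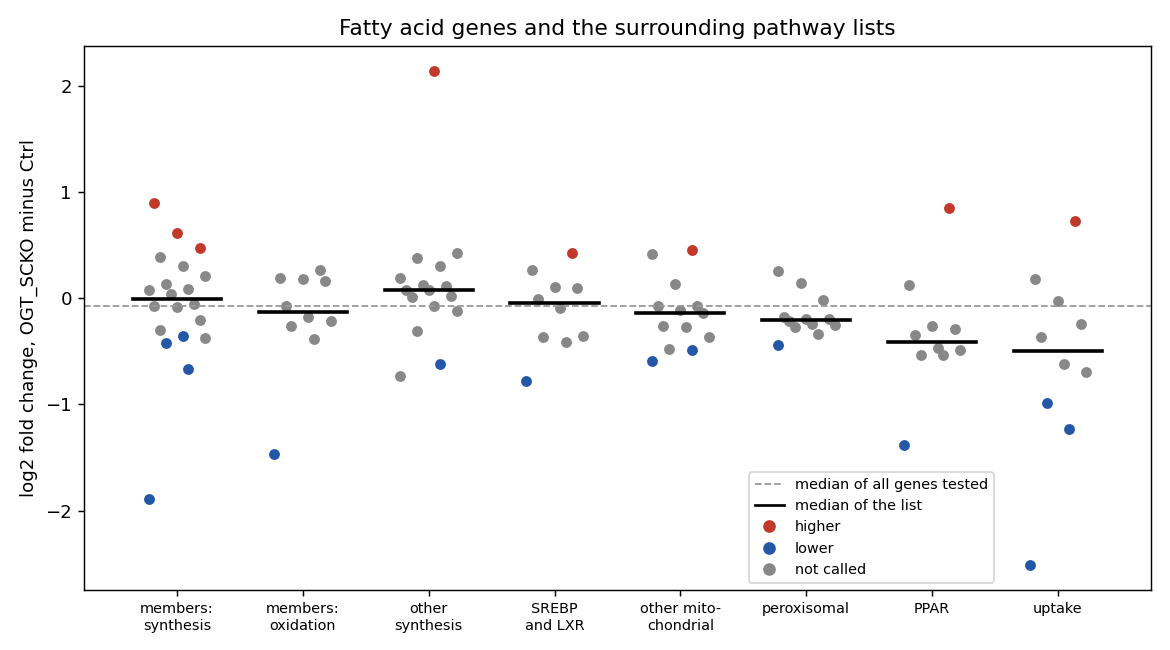
Log2 fold change (vertical axis, OGT_SCKO minus Ctrl) of each gene tested in the synthesis set, the oxidation genes and 6 further lists of the pathway, with a black bar at each list's median and a dashed line at the median of all genes tested. The list medians run from -0.49 (uptake) to 0.078 (other synthesis genes), around the dashed line at -0.075.

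RefSeq promoter windows (250 bases before to 50 after the start, GRCm38.p6) were found for 34 of the 39 members, 43 windows in all. No window was found for Scd1, Scd2, Fads1, Cpt1b and Fabp5, so these genes were not searched. The windows were searched on both strands for short motifs. The AP-1 site TGANTCA, of interest because the series title names JUN, was in 3 of the 43 windows (6.98%), beside 7.81% of all 32851. Those were windows of Acadvl, Me1 and Acsl6, which fell, rose and did not pass. The sterol element TCACNCCAC was in 4.65% of member windows and 1.24% of all, those of Ehhadh and Mlxipl. The E-box CACGTG, the core that factors of the ChREBP and MYC type bind, was in 9.3% and 7.15%, with Elovl4 and Pcx among the called members. The letters AGGTCA, which nuclear receptors such as PPARs bind, was in 27.91% and 16.26%, CCAAT in 51.16% and 37.41%, the GC box GGGCGG in 60.47% and 35.66%, and TATAAA in 4.65% and 13.62%. AP-1 and E-box sites read the same on both strands, and no test was made of these shares. A match is a description of the letters.

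The called members Scd1, Fads1 and Fabp5 had no window. Windows of Acadvl, Me1, Elovl4 and Pcx are shown, the called members whose windows hold the AP-1 or E-box letters. They are chr11:70015379-70015678, chr9:86695865-86696164 and chr9:83806256-83806555 on the minus strand and chr19:4510222-4510521 on the plus strand (GRCm38.p6), written 5′ to 3′ along the gene. Capitals mark AGGTCA and then the AP-1 site in Acadvl, the AP-1 site in Me1, the E-box and then a reversed CCAAT in Elovl4, and the E-box and then 3 CCAAT boxes in Pcx.
Acadvl: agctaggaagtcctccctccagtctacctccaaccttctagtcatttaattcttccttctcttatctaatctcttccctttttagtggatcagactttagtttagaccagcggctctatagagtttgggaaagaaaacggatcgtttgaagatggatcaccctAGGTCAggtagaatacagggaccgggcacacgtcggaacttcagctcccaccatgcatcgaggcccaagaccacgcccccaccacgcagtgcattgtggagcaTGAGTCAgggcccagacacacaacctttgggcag
Me1: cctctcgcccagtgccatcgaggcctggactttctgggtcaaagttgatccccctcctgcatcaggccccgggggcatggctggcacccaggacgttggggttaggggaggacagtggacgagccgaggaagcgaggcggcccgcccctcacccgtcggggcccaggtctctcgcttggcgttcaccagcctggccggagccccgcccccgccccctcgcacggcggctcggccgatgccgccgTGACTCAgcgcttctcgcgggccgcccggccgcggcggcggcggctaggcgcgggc
Elovl4: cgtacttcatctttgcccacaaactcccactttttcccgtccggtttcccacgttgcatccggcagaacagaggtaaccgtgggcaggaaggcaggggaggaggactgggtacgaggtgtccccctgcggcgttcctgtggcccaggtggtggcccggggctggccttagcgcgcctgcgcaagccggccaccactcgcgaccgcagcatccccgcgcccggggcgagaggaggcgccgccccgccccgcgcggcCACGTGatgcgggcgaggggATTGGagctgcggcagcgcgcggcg
Pcx: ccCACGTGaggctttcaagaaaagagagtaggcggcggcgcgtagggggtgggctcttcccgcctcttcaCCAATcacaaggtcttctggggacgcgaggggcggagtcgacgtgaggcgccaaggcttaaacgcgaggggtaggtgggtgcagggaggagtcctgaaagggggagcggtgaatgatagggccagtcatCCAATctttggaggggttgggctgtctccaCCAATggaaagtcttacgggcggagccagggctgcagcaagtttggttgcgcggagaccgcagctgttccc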

How the data were processed

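Per the file headers and the submitters' processing notes, spot intensity values were made by the authors with Agilent Feature Extraction 11.5.1.1 and were deposited without normalisation between arrays. Other deposited flags mark spots above background, saturated spots and outliers. A log2 table deposited by the authors served as an alternative. It correlated at 0.999 or more with quantile normalised log2 signal, and its other steps are not given in the sources used here.

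Control and outlier spots were left out, and spots of a probe averaged. The unit was log2 processed signal minus the 75th percentile of the array. Probes well above background on all arrays of a group were kept (24287). A gene was read from its kept probe with the highest mean. Probes were named by accession through RefSeq genes of GRCm38.p6 (27655 matched, 11774 kept the file's name), while probe positions are those in the files (mm9). The fit used limma 3.58.1 (lmFit, then eBayes; R 4.3.3) without covariates and with Benjamini-Hochberg adjustment over 19058 genes, after the code was tested on simulated data. Values of a gene's other probes come from the same fit over all kept probes, adjusted over those. Errors are SE of that fit. The number of arrays limits the precision. Sequences were handled in Python 3.11.15. For a member above background on none of the Ctrl arrays, the OGT_SCKO mean was set against the lowest signal above background on each Ctrl array. That signal need not be the detection limit of the member's own probe.

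All 39 members, Ogt, and from each related list up to 3 called genes with the smallest p and 1 more were named, except that some genes are not reported here. Members and lists were chosen with earlier results of these data known, and pairs of members set against each other were chosen after their values were seen, so they carry no test. The marker lists were adipocyte, skeletal muscle, hepatocyte, Schwann cell, macrophage, endothelial and fibroblast. Of 6 fibroblast markers 1 fell, and none of 7 macrophage markers passed. The alternatives were other scalings, background correction, filters, the mean of probes, deposited values, slide, replicate number, a variance model and leaving out each pool.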

Additional observations from a re-analysis of the deposited data

How the results depend on the processing

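All 12 called members kept their sign under all 18 alternatives, and the number that passed ran from 1 to 12. Acadvl passed in each of the 18, Fads2, Elovl4 and Acsl5 in 17, Acsl4 in 16, Pcx and Fabp5 in 15, Me1 in 14, Scd1 in 9, Acsl3 in 8, Srebf1 in 7 and Fads1 in 5. Against 7 higher and 5 lower, slide as a fixed block gave 3 and 2 (1225 genes called in all) and slide 1 alone 0 and 1 (406 genes, with 1 Ctrl array). Lower members numbered 3 under median scaling, 3 with normexp and 3 with no filter on dim probes. All genes called then numbered 2722 with normexp and 2629 with no filter, against 4438. With normexp 55% of the calls were higher, and with slide 1 alone 69.7%, against 47.9%. Leaving out 1 pool left 4 to 6 higher and 3 to 5 lower, and 1974 to 5630 genes in all.

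Replicate numbers did not pair the pools: deviations of pools with the same number correlated at -0.269, -0.527 and 0.0635. With the replicate block 2 members were higher and 2 lower (Fads2, Acsl5, Elovl4 and Acadvl), of 1475 genes called.

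The synthesis median was 0.0856 after quantile normalisation, 0.0907 with the deposited values and -0.121 with slide as a block or slide 1 alone. The median of all genes in these fits was -0.0108, -0.0112 and -0.1105. The oxidation median was -0.0691 (quantile), -0.0881 (median scaling), -0.0774 (normexp), -0.198 (mean of probes), -0.0851 (deposited), -0.0906 (random slide block) and -0.194 to 0.0163 with a pool left out. It turned positive without OGT_SCKO 2 alone.

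Members that did not pass changed sign in places. With the mean of probes Acss2 gave -0.019 and Acacb -0.035. With slide as a block or slide 1 alone Acacb gave -0.093, Scd3 -0.23 and Elovl7 0.051. Scd2 gave 0.13 and Elovl7 0.0035 after quantile normalisation, and the deposited values gave Scd2 0.127, Acaca 0.028 and Cpt1b 0.0023. Cpt1b gave 0.015 with normexp and 0.0078 with the random slide block. With a pool left out, Acacb ran from -0.049 to 0.107, Scd3 from -0.107 to 0.253, Elovl5 from -0.011 to 0.228, Elovl7 from -0.165 to 0.090, Mlxipl from -0.208 to 0.00040 and Cpt1b from -0.202 to 0.14. The cause of these changes was not tested. Among related genes with a call, Mbtps2 kept it in 8 of 18 alternatives, Acads, Etfb, Hsd17b4 and Slc27a3 in 9, Acaa2 in 10 and Fabp4 in 12, each losing it without at least 1 single pool. Signals near background limit Elovl2, Fabp1, Acsl6, Cpt1b, the dim Mlxipl probe and the dim Scd3 probes.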
